A study of Mus musculus with 12 samples.

Results

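Eicosanoids are signalling lipids made from arachidonic acid, and the genes described here carry the main steps of their synthesis together with 1 receptor. The list holds 10 genes of the 28689 in the expression table: the phospholipase Pla2g4a, the cyclooxygenases Ptgs1 and Ptgs2, the prostanoid synthases Ptges, Ptgis, Tbxas1 and Hpgds, the leukotriene genes Alox5 and Alox5ap, and the receptor Ptger4. The rule went by name and pathway and used no measured value, but the list was chosen with earlier results of these data known. RNA was sequenced from mouse lung endothelial cells (MLECs) as 12 libraries, 6 for the CTR group and 6 for the dKO group. All mice were adult, carried floxed alleles of Sp1 and of Sp3 (Sp1 fl/fl and Sp3 fl/fl) and received tamoxifen. The dKO mice (labelled endothelial Sp1/Sp3 knockout) also carried VE-CAD-CreERT2, a tamoxifen-inducible recombinase driven by the promoter of VE-cadherin, a gene of endothelial cells, while the CTR mice (labelled WT) were littermates without it. Cells were taken from digested lungs with beads against CD31, grown, and selected again with beads against ICAM2, so each library comes from a cultured preparation and not from freshly isolated vessels. The number of mice behind a library is not given, and p-values therefore measure the spread between these preparations.

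Phospholipase A2 frees arachidonic acid from membranes. Cyclooxygenases turn it into prostaglandin H2, from which separate terminal synthases make prostaglandin E2, prostaglandin D2, prostacyclin and thromboxane A2, while 5-lipoxygenase and its activating protein start the leukotriene branch. Endothelial cells are known for prostacyclin, which relaxes vessels and holds back platelets, platelets and macrophages for thromboxane A2, which does the opposite, and myeloid and mast cells for leukotrienes. Sp1 and Sp3 are transcription factors that bind GC boxes, which are common in promoters.

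Libraries held between 15523054 and 17938286 fragments on genes, as recovered from the steps of the deposited values. Those values are FPKM, fragments scaled to the length of the gene and to the fragments of the library, so levels can be compared between genes. Sp1 was lower in all 6 dKO libraries (8.42 to 12.1 FPKM) than in any CTR library (19.4 to 23.7), and its log2 fold change of −0.95 ± 0.09 (standard error) passed the test described below (adjusted p = 5.68e-06, limma). Sp3 read 24.2 to 31.1 FPKM in CTR and 22.5 to 26.9 in dKO, which did not pass the test (adjusted p = 0.0902, limma). By RNA level in these libraries the knockout label therefore rests on Sp1. The paper reports less Sp1 and less Sp3 protein by immunofluorescence in the aortic endothelium of dKO mice. That is another measure in another tissue. The libraries held RNA of genes known from several cell types, and the share of each cell type was not measured. Endothelial markers were present in every library, with a summed level of 169–251 FPKM in CTR and 308–425 in dKO, yet Col1a1, a collagen gene of fibroblasts, was at 1173 FPKM in CTR, far above the endothelial genes Cdh5 at 88.9 and Pecam1 at 33.4. All 10 macrophage markers were higher in dKO (adjusted p under 0.05), with sums of 711–1244 FPKM in CTR and 2373–5285 in dKO, and fibroblast marker sums were 2122–2689 in CTR and 820–1645 in dKO. The fibroblast sum was mostly the collagens Col1a1, Col1a2 and Col3a1. On the same list Dcn rose from 6.82 to 17.8 FPKM, Pdgfra was at 117 and 104, and Lum at 0.754 and 0.879. Which cells the collagen RNA came from was not tested. In such bulk RNA, fewer cells of a type and less RNA per cell cannot be told apart.

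Of the 10 eicosanoid genes, 4 rose in dKO MLECs and 0 fell by limma, with 1 lower at an unadjusted p under 0.05 and 0 lower by limma-voom on recovered fragments. The genes that rose were Hpgds, Tbxas1 and Ptges, which encode terminal synthases, and Alox5ap, which serves 5-lipoxygenase, and each also changed by more than 1.5-fold on the tested scale. Both cyclooxygenases, the prostacyclin synthase Ptgis, Alox5, Pla2g4a and Ptger4 did not pass. A gene was called at an adjusted p under 0.05 from limma on log2(FPKM + 1) over 12467 tested genes, and fold changes are on that scale, where the added 1 shrinks the change of weakly expressed genes. By this rule 53.1% of all tested genes were called, 20.4% higher and 32.6% lower, while 8.92% were higher and 8.98% lower by more than 1.5-fold. The 6 dKO libraries of each of the 4 genes lay above all 6 CTR libraries, as they did for 11.3% of all tested genes. No member passed an absolute log2 fold change of 1.5, which 1.98% of tested genes did, 1.43% being higher. That held on the log2(FPKM + 1) scale, and on scales with a smaller pseudocount Hpgds passed, at 2.19 with 0.1 added and 2.31 with 0.01, as did Tbxas1 at 1.54 with 0.01. Hpgds was also past 1.5 with TPM (1.92), median-of-ratios scaling (1.52) and limma-voom (2.32), and Tbxas1 with limma-voom (1.54). The median log2 fold change was 0.26 over the 10 genes and −0.10 over all tested genes. All 10 genes passed the filter on low values (at least 1 FPKM in at least 6 libraries), Hpgds through its dKO libraries, since only 1 CTR library reached 1 FPKM.

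**Figure D1:**
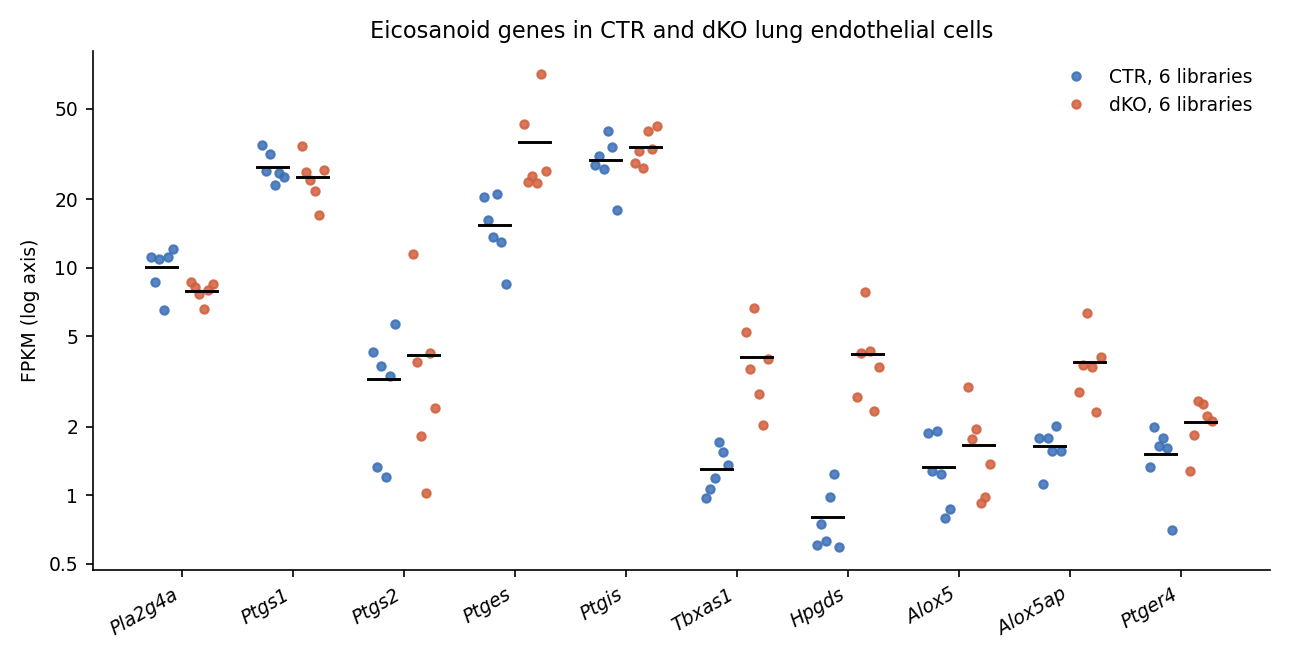
Level of the 10 eicosanoid genes in each library, as FPKM on a log axis. Points are single libraries (6 CTR in blue, 6 dKO in red) and bars are group means. The dKO points of Ptges, Tbxas1, Hpgds and Alox5ap lie above all CTR points of the same gene, and the groups of the other 6 genes overlap.

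Promoter sequence was examined first, because the deleted factors bind GC boxes. RefSeq promoter windows (build GRCm38.p6) from 250 bases before to 50 bases after the start were available for 8 of the 10 genes, and were placed on GRCm39 by exact match. A GC box, GGGCGG on either strand, was found in 4 of these 8, in Ptges, Ptgs2, Alox5 and Ptger4, and 35.7% of all 32851 promoter windows of the same length hold one. The windows of Hpgds, Tbxas1, Ptgs1 and Pla2g4a held no match to these letters. The stretches with the boxes are shown 5′ to 3′ on the strand of the gene, and capitals mark the GC box, or its complement CCGCCC where the box lies on the other strand.
Ptges, minus strand, chr2:30793340-30793369: tcagggtGGGCGGggagtGGGCGGgggtga
Ptgs2, plus strand, chr1:149975600-149975629: gagggatggagaGGGCGGtgcagctctctt
Alox5, minus strand, chr6:116438157-116438186: ggccagagacagGGGCGGagccagcgcctg
Ptger4, minus strand, chr15:5273699-5273828: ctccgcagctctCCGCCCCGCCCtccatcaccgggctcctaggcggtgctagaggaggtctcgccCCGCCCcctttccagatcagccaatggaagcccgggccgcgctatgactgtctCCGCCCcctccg
The window of Ptges held 2 boxes, 53 and 42 bases before its RefSeq start, which lies 26887 bases inside the gene as GENCODE annotates it, so the boxes precede a transcript start and not the outermost one. The RefSeq starts of Tbxas1, Ptgs2 and Hpgds likewise lie 43717, 588 and 269 bases inside, as does 1 of the 2 windows of Pla2g4a at 38863 bases, and the 250 bases before the starts of Ptgs2 and Hpgds are exonic in GENCODE transcripts of the same gene. That of Ptger4 held 4 on the other strand, 148, 143, 95 and 42 bases before its start, of which the first and the second share a base, and at least 2 boxes were held by 19.5% of all windows. Ptgs2 and Alox5 had 1 box each, at 170 and 35 bases. Of the 4 genes with a box, Ptges rose, and Ptgs2, Alox5 and Ptger4 did not pass the test. A match is a description of the letters and was not tested for binding.

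**Figure D2:**
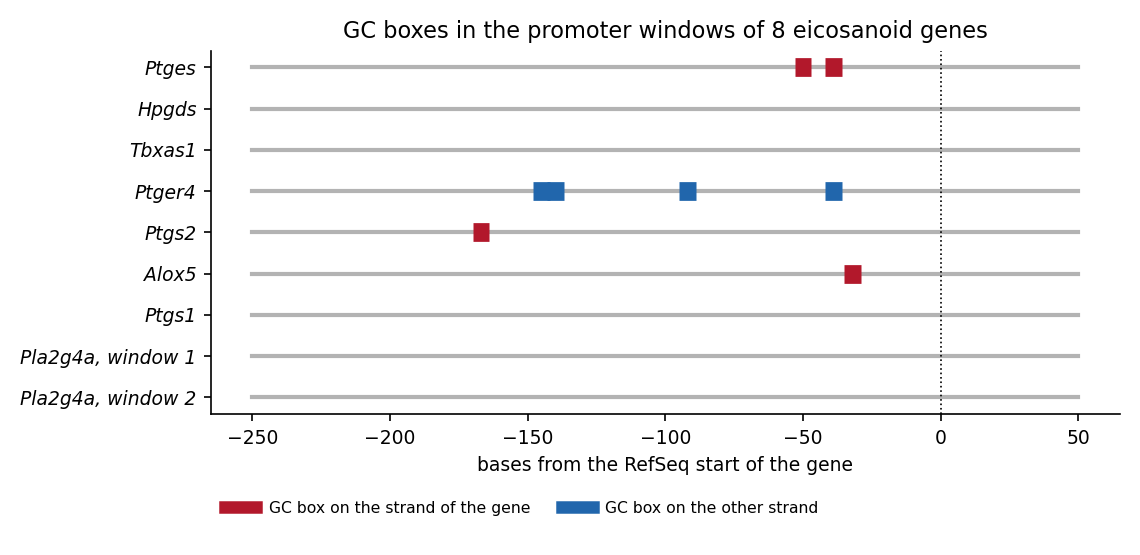
GC boxes in the promoter windows of 8 eicosanoid genes, drawn by distance in bases from the RefSeq start (dotted line at 0). Grey lines are the windows, 2 for Pla2g4a, red squares are boxes on the strand of the gene and blue squares boxes on the other strand. Ptges has 2 boxes, Ptger4 has 4, Ptgs2 and Alox5 have 1 each, and the remaining windows have none.

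Release of arachidonic acid starts with Pla2g4a (ENSMUSG00000056220, chromosome 1, 149705369 to 149837053), which encodes cytosolic phospholipase A2 and lies beside Ptgs2. Its CTR libraries read 6.54, 8.61, 10.9, 11.1, 11.1 and 12.1 FPKM, and its dKO libraries 6.56, 7.67, 7.95, 8.24, 8.47 and 8.62. All dKO values were below the CTR mean, but CTR replicate 4, at 6.54, was the lowest of all 12. The log2 fold change was −0.29 (95% interval −0.56 to −0.02) with an adjusted p of 0.0628 from limma, and an exact two-sided permutation test of this gene alone gave p = 0.0433. Without CTR replicate 4 the log2 fold change was −0.40 and the gene was called (adjusted p = 0.00264, limma). With TPM it was −0.36 over all 12 libraries and also called (adjusted p = 0.0384, limma), so the call depended on the scale and on 1 control library.

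Neither cyclooxygenase gene passed the test. Ptgs1 (ENSMUSG00000047250, chromosome 2, 36120438 to 36142287), the constitutive form, was at 27.8 ± 4.37 FPKM in CTR (range 23.1–34.7) and 25.1 ± 5.76 in dKO (17.1–34.3), with a log2 fold change of −0.16 (95% interval −0.47 to 0.15, adjusted p = 0.367, limma). Ptgs2 (ENSMUSG00000032487, chromosome 1, 149975194 to 149983978), the inducible form, was the most variable of the 10 genes in both groups. Its CTR libraries read 1.20, 1.33, 3.33, 3.68, 4.26 and 5.64 FPKM, and its dKO libraries 1.02, 1.81, 2.43, 3.86, 4.20 and 11.4. The coefficient of variation was 53.1% in CTR and 91.6% in dKO, and 1 library, dKO replicate 1, lay far above the rest. The log2 fold change was 0.13 with a 95% interval from −0.74 to 0.99 (adjusted p = 0.807, limma). Changes between these limits could not be told from no change. Leaving out dKO replicate 1 turned its sign, to −0.18, still without a call. Ptgs1 was the higher of the pair in every library, with Ptgs2 at between 0.0503 and 0.225 of Ptgs1 in CTR and between 0.0471 and 0.333 in dKO.

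Terminal synthases held 3 of the 4 genes that rose. Hpgds (ENSMUSG00000029919, chromosome 6, 65094001 to 65121983) encodes hematopoietic prostaglandin D synthase, which makes prostaglandin D2 in mast cells, macrophages and other cells of the blood lineages. Its CTR libraries read 0.594, 0.607, 0.630, 0.746, 0.980 and 1.25 FPKM, and its dKO libraries 2.35, 2.72, 3.67, 4.22, 4.30 and 7.80. The lowest dKO library was above the highest CTR library. It had the largest change of the 10 genes, a log2 fold change of 1.46 ± 0.20 (adjusted p = 6.15e-05, limma) and a ratio of mean FPKM of 5.21. Throughout, ± is the standard error for log2 fold changes and the SD over the 6 libraries of a group for FPKM levels. It was the least expressed of the 10 genes in CTR and took the fifth place in dKO. The values rest on 65 to 880 fragments a library. Gm17147, a pseudogene on the opposite strand that overlaps its exons, had at most 11 fragments in a library.

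Tbxas1 (ENSMUSG00000029925, chromosome 6, 38852203 to 39061523) encodes thromboxane A synthase, the last step to thromboxane A2. CTR libraries read 0.978, 1.07, 1.19, 1.36, 1.56 and 1.71 FPKM and dKO libraries 2.04, 2.78, 3.60, 3.98, 5.23 and 6.62. The groups did not overlap, and the log2 fold change was 1.07 ± 0.19 (adjusted p = 0.000463, limma) with a ratio of means of 3.08. By contrast Ptgis (ENSMUSG00000017969, chromosome 2, 167033725 to 167083018), which encodes prostacyclin synthase, read 17.9, 27.2, 28.2, 31.0, 33.9 and 39.7 FPKM in CTR and 27.4, 28.9, 32.4, 33.1, 39.7 and 41.8 in dKO. These groups overlapped through most of their range, with a log2 fold change of 0.21 (95% interval −0.14 to 0.56, adjusted p = 0.297, limma). Ptgis nevertheless stayed above Tbxas1 in every library. The ratio of Ptgis to Tbxas1 was 23.1 ± 5.81 in CTR (13.1 to 29.1) and 9.94 ± 4.74 in dKO (4.14 to 16.2, SD, n = 6 each), with an overlap between dKO replicates 4 and 5 and CTR replicate 6. This ratio and the others given here were chosen after the values were seen and carry no test.

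Ptges (ENSMUSG00000050737, chromosome 2, 30779483 to 30820196) encodes microsomal prostaglandin E synthase, the inducible enzyme that makes prostaglandin E2, and has the pair of GC boxes shown above. CTR libraries read 8.47, 12.9, 13.6, 16.3, 20.4 and 21.1 FPKM and dKO libraries 23.7, 23.9, 25.4, 26.7, 42.6 and 70.6. The groups did not overlap, but 4 dKO libraries lay between 23.7 and 26.7 FPKM, just above the CTR range, and replicates 1 and 5 lay far higher. The log2 fold change was 1.08 ± 0.28 (adjusted p = 0.00572, limma) and the ratio of means 2.29. Without dKO replicate 5 the log2 fold change was 0.86 and the call held (adjusted p = 0.0066, limma). Ptges moved from the third to the first place among the 10 genes by mean FPKM, though in dKO it was above Ptgis in only 2 of 6 libraries. Its ratio to Ptgs1, the more abundant cyclooxygenase gene, was 0.337 to 0.916 in CTR and 0.906 to 4.13 in dKO, so these ranges met at their ends. The ratio of Hpgds to Ptgs1 was 0.0175 to 0.0477 in CTR and 0.0791 to 0.323 in dKO, without overlap.

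In the leukotriene branch the gene for the activating protein rose and the gene for the enzyme did not pass. Alox5ap (ENSMUSG00000060063, chromosome 5, 149196003 to 149227762) encodes the membrane protein that presents arachidonic acid to 5-lipoxygenase. Its CTR libraries read 1.13, 1.57, 1.57, 1.78, 1.79 and 2.02 FPKM and its dKO libraries 2.33, 2.86, 3.65, 3.75, 4.07 and 6.33. The groups did not overlap, with a log2 fold change of 0.83 ± 0.16 (adjusted p = 0.000808, limma) and a ratio of means of 2.33, on 27 to 158 fragments a library, the fewest of the 4 genes that rose. Alox5 (ENSMUSG00000025701, chromosome 6, 116387032 to 116438139), which encodes 5-lipoxygenase, read 0.797, 0.873, 1.24, 1.28, 1.89 and 1.91 FPKM in CTR and 0.923, 0.987, 1.38, 1.77, 1.95 and 2.98 in dKO. Its log2 fold change was 0.17 (95% interval −0.23 to 0.57, adjusted p = 0.447, limma), and the groups overlapped.

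The receptor Ptger4 (ENSMUSG00000039942, chromosome 15, 5236142 to 5273673), known as EP4, raises cyclic AMP when it binds prostaglandin E2. CTR libraries read 0.707, 1.33, 1.62, 1.65, 1.79 and 1.99 FPKM and dKO libraries 1.28, 1.83, 2.13, 2.24, 2.51 and 2.60. The groups overlapped through dKO replicates 1 and 2, and 4 of 6 dKO libraries lay above the CTR range. The log2 fold change was 0.31 (95% interval −0.0046 to 0.62), with an adjusted p of 0.0890 from limma. Without dKO replicate 1 it was 0.39 and the gene was called (adjusted p = 0.0266, limma). Part of its exons overlaps Ttc33 on the opposite strand, which was at 8.63 FPKM in CTR and 8.59 in dKO, and the use of strand in counting is not given in the sources used here.

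The order of levels changed with the genes that rose. In CTR the means fell from Ptgis over Ptgs1, Ptges, Pla2g4a and Ptgs2 to Alox5ap, Ptger4, Alox5, Tbxas1 and Hpgds. Library ranges of neighbours in that order were separate only between Ptgs1 and Ptges and between Pla2g4a and Ptgs2. In dKO the order was Ptges, Ptgis, Ptgs1, Pla2g4a, Hpgds, Ptgs2, Tbxas1, Alox5ap, Ptger4 and Alox5, and the only gap between the ranges of neighbours was below Ptgs1. The means of Hpgds, Ptgs2, Tbxas1 and Alox5ap in dKO, 4.18, 4.13, 4.04 and 3.83 FPKM, differed by less than their SDs of 1.94, 3.78, 1.67 and 1.38.

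All 4 genes that rose did so in each of the 6 dKO libraries, but the library with the largest rise differed between them. Relative to the CTR mean, Hpgds, Tbxas1 and Alox5ap were highest in dKO replicate 3, at 3.28, 2.34 and 1.95 on the log2 FPKM scale, where the summed macrophage markers were also highest, at 2.45. These 3 genes and the macrophage sum were lowest in dKO replicate 5, with Hpgds at 1.55, Tbxas1 at 0.64, Alox5ap at 0.51 and the macrophage markers at 1.29. Ptges showed another pattern, with 2.19 in replicate 5 and 1.46 in replicate 1 against 0.61 to 0.79 in the other 4. The macrophage sum was mostly Lyz2, at a mean of 1868 of 3305 FPKM in dKO. Of the 10 macrophage markers 9 were highest in dKO replicate 3. The remaining 1, Cd14, was highest in replicate 5, at 64.0 FPKM against 8.87 to 16.2 in the other dKO libraries. Without dKO replicate 3 the log2 fold changes, now on the log2(FPKM + 1) scale, were 1.29 for Hpgds, 0.94 for Tbxas1 and 0.71 for Alox5ap, and all 3 were still called. The macrophage list as a whole moved with the group in the same direction as these genes, with 10 of 10 markers called higher. So did the endothelial list, with 9 of 10 called higher and 8 of them by more than 1.5-fold. Its sum was highest in dKO replicate 5, at 1.05, where Ptges was highest. The endothelial sum was nearly the same in replicate 4, at 1.03, where Ptges was lowest, and was 0.81 in replicate 1, where Ptges was at 1.46. The part of either list in the rise of the genes was not tested. C1qa, a complement gene of macrophages, was at 19.9–49.3 FPKM in CTR and 244–652 in dKO.

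**Figure D3:**
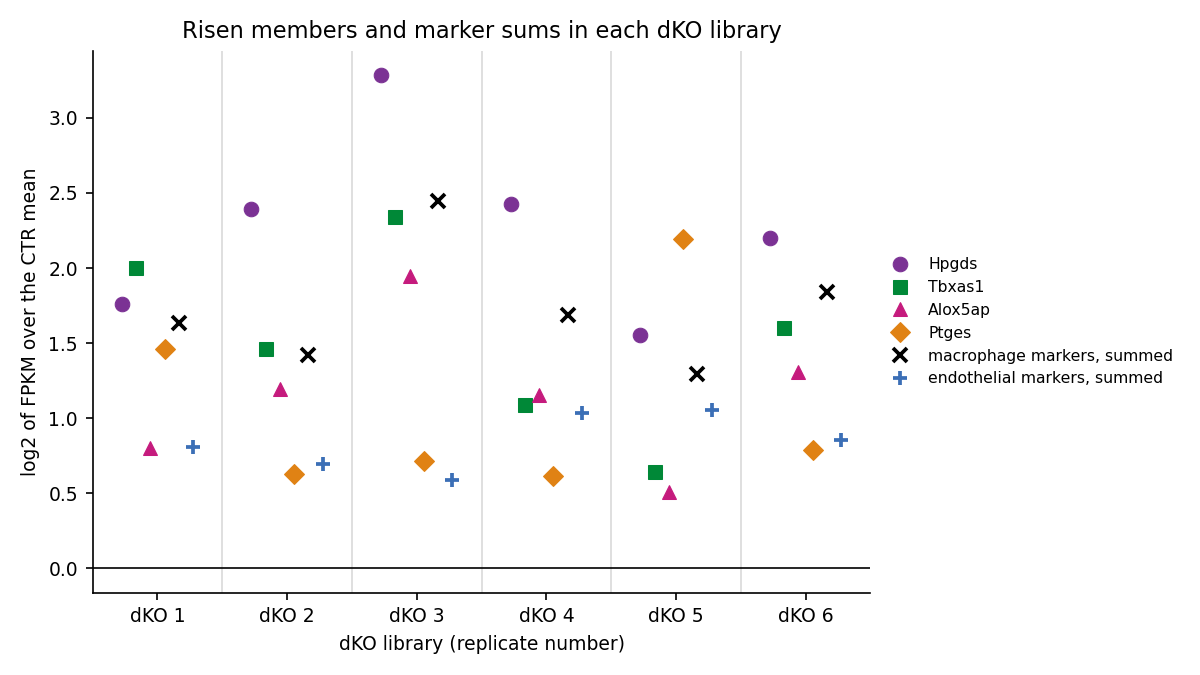
The 4 genes that rose and the summed macrophage and endothelial markers in each dKO library, as log2 of FPKM over the CTR mean, so that 0 is the CTR mean. Hpgds, Tbxas1, Alox5ap and the macrophage sum are highest in dKO replicate 3, while Ptges is highest in dKO replicate 5, at 2.19.

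Other cells that express these genes were looked for with marker lists. Of the mast cell markers, known along with Hpgds, Alox5 and Alox5ap from the same cells, 0 of 2 tested were called by limma (also 0 at an unadjusted p under 0.05, and 0 by limma-voom), and Tpsab1, Mcpt4, Cma1 and Ms4a2 stayed under 1 FPKM in all libraries. The summed mast cell level, 10.4–21.5 FPKM in CTR and 12.8–23.9 in dKO, was mostly that of Kit, a gene that mast cells share with other cells, at 13.0 ± 3.04 and 14.1 ± 3.01 FPKM. Cpa3, the other tested mast cell marker, was present at 2.16 ± 1.37 FPKM in CTR (0.852–4.68) and 3.16 ± 1.24 in dKO (1.49–4.63). Tpsb2 and Fcer1a, also on the list, have no values in the expression table. Of the platelet markers, relevant for Tbxas1 and Ptgs1, Ppbp, Itga2b, Gp1ba, Gp9 and Gp6 were under 1 FPKM in every library, and Pf4, which macrophages also express, rose from 15.4 ± 9.94 to 75.8 ± 23.9 FPKM (SD, n = 6 each). The neutrophil markers Retnlg, Csf3r, Ly6g and Mpo and the 4 lymphocyte markers in the table were also under 1 FPKM throughout. Of the other neutrophil markers, S100a8, the only one tested, rose from 2.12 ± 1.19 to 5.50 ± 1.53 FPKM without overlap (adjusted p = 0.00256, limma), and S100a9 was at 0.228 ± 0.311 and 1.93 ± 1.46. The smooth muscle and pericyte sum, of interest because these cells express Ptgis, was 495–1423 FPKM in CTR and 450–844 in dKO, with 1 of 5 tested markers called higher. Of the 5 tested fibroblast markers, 3 were called lower and 1 higher. Mesothelial markers, of the cells that cover the lung, were called higher in 4 of 5 cases, with sums of 21.4–30.6 FPKM in CTR and 58.1–135 in dKO, and for lymphatic endothelial cells Prox1 and Flt4 of 4 tested markers were called higher, with sums of 86.2–160 and 109–217. Of the lung epithelial markers 1 of 6 tested was called higher, with sums of 88.2–499 FPKM in CTR and 153–360 in dKO. Most of that sum was Sftpc, at 180 ± 131 and 192 ± 71.2 FPKM. The only dendritic cell marker tested was not called. The part of these cells in the members' changes was not tested.

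The rest of the pathway was described from a list of 68 genes by role, which includes the 10 above. Of these, 67 were in the table and 38 passed the filter, 10 of them called higher and 6 lower, with a median log2 fold change of 0.12. This balance depended on the processing, with 12 higher and 3 lower of 38 under median-of-ratios scaling and 12 higher and 10 lower of 47 with TPM. TPM values are larger than FPKM here, so the same filter let more genes through and the added 1 weighed less. Ptgr1 and Lta4h, called higher in the main fit, were not called with TPM (adjusted p = 0.0505 and 0.0501, limma). Under median-of-ratios scaling Ptges3, Ptgr3 and Pla2g12a were still called lower, while Cbr1, Ptger2 and Cyp4f13 kept their sign without a call. In the main fit more than 1.5-fold changes were found for 8 of the 38 tested genes, all higher. Of all tested genes 8.92% were higher and 8.98% lower by that much. Among genes held back by the filter, TPM called Ptgfr (−1.13) and Cyp2c44 (−1.15) lower, and Pla2g2d, Ltb4r1, Cyp2s1 and Cyp4f18 higher. Without the 10 members, 6 of 28 tested genes were called higher and 6 lower, against 20.4% and 32.6% of all tested genes. Of these, 4 were more than 1.5-fold higher and none as much lower. Past that size and without overlap of the groups were Ephx1 and Ggt1. Ephx1, microsomal epoxide hydrolase, was at 46.1 ± 6.18 FPKM in CTR (36.0–51.6) and 117 ± 16.9 in dKO (99.9–147, SD, n = 6 each), a log2 fold change of 1.33 ± 0.11 (adjusted p = 1.84e-06, limma). Ggt1, a gamma-glutamyltransferase that converts leukotriene C4 to D4, was at 0.468 ± 0.171 and 1.94 ± 0.720 FPKM, a log2 fold change of 0.98 ± 0.14 (adjusted p = 9.05e-05, limma), and passed the filter through its dKO libraries alone.

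By role, the cyclooxygenases gave 0 calls of 2 tested by limma, also at an unadjusted p under 0.05 and by limma-voom, and the terminal synthases 3 higher and 2 lower of 9. The synthases that fell were Ptges3, a cytosolic prostaglandin E synthase also known as the co-chaperone p23, from 67.2 ± 11.8 to 49.5 ± 3.95 FPKM, and Cbr1, a carbonyl reductase, from 28.3 ± 2.52 to 23.3 ± 3.33. Ptges2, the third gene for prostaglandin E synthesis, was at 3.27 ± 0.311 and 3.20 ± 0.717 FPKM and was not called. The 3 genes named for that reaction thus went apart, with Ptges higher, Ptges3 lower and Ptges2 not called. Ptgds, the other prostaglandin D synthase, stayed at or below 0.219 FPKM in every library, so Hpgds was the more abundant of the pair in each.

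Among genes of release, Pla2g2e, a secreted phospholipase, rose from 3.20 ± 1.47 to 6.61 ± 1.16 FPKM and Pla2g12a fell from 11.8 ± 2.93 to 7.98 ± 0.998. In transport and breakdown 2 were higher and 1 lower of 6. Hpgd, 15-hydroxyprostaglandin dehydrogenase, which inactivates prostaglandins, rose from 1.51 ± 1.08 to 3.88 ± 0.889 FPKM, a log2 fold change of 1.04 ± 0.23 (adjusted p = 0.00232, limma), with 1 CTR library in the range of dKO. Ptgr1 rose from 17.2 ± 3.90 to 22.4 ± 2.12 FPKM and Ptgr3 fell from 36.9 ± 4.49 to 27.2 ± 2.68, both prostaglandin reductases. Of the 4 tested prostanoid receptors only Ptger2 was called, from 4.26 ± 0.867 to 3.17 ± 0.512 FPKM. It couples to cyclic AMP as Ptger4 does, and the value of Ptger4 went the other way without a call. The prostacyclin receptor Ptgir was at 4.21 ± 0.941 and 5.43 ± 1.95 FPKM, and the thromboxane receptor Tbxa2r at 2.86 ± 1.28 and 3.99 ± 1.38, neither called.

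**Figure D4:**
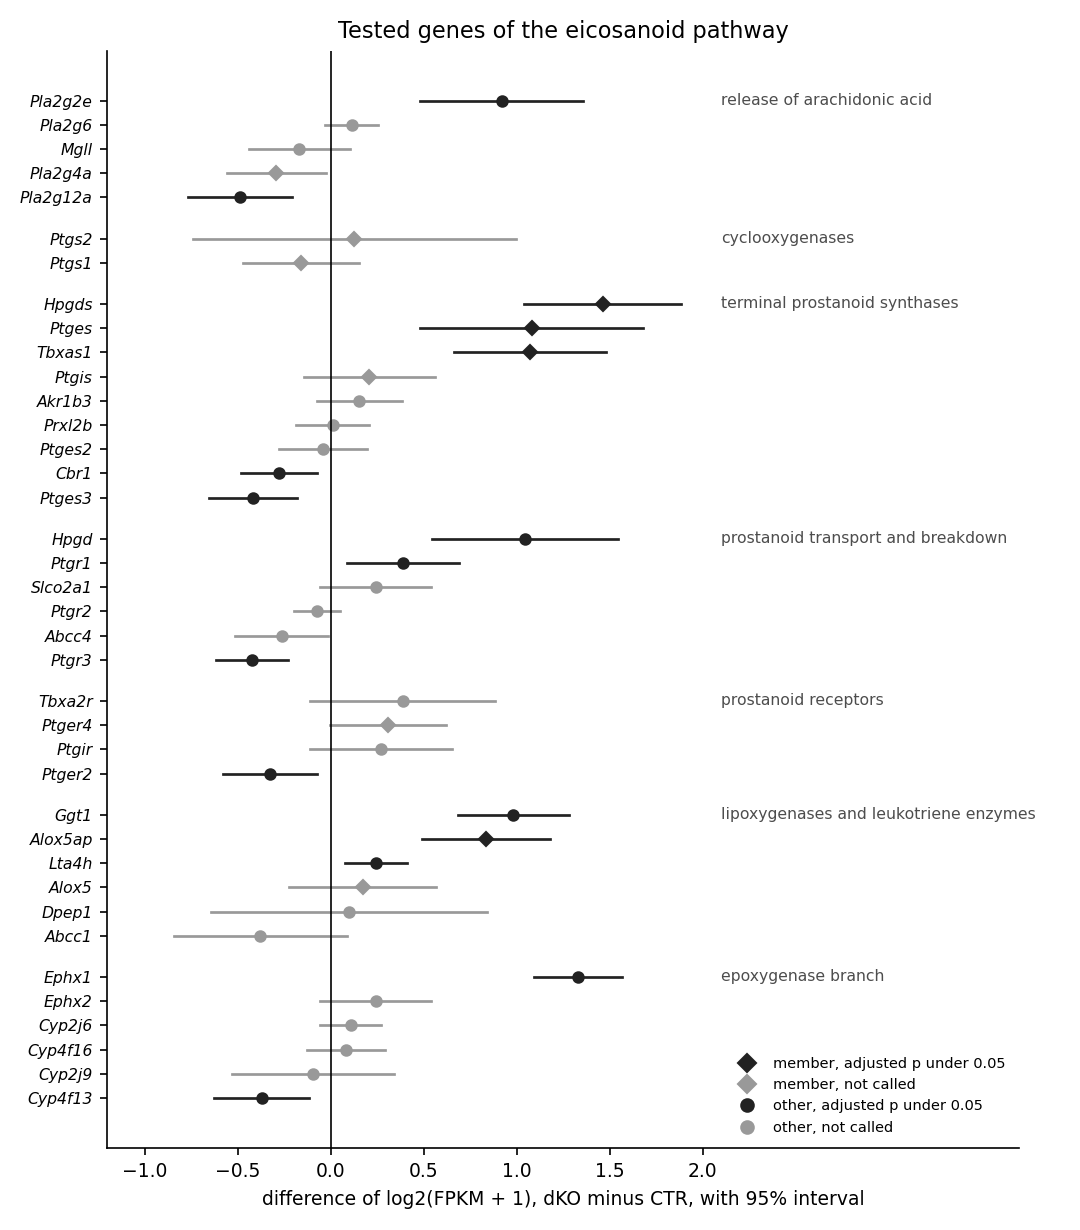
Difference of log2(FPKM + 1), dKO minus CTR, for the 38 tested genes of the pathway list by role, with 95% intervals from limma. Diamonds are the 10 genes of the main list and circles the others, and black marks an adjusted p under 0.05. The intervals of Hpgds, Ptges, Tbxas1, Alox5ap, Hpgd, Pla2g2e, Ggt1 and Ephx1 lie well to the right of 0, and no called gene lies as far to the left.

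In the leukotriene list Lta4h, leukotriene A4 hydrolase, which makes leukotriene B4, rose by a log2 fold change of 0.24 ± 0.08 (adjusted p = 0.0184, limma) from a CTR level of 11.7 ± 1.24 FPKM, while Ltc4s, leukotriene C4 synthase, was under the filter at 0.721 ± 0.283 and 0.739 ± 0.296. All 5 leukotriene and lipoxin receptors were under the filter, which held back 29 genes of the list. Of these 29, the libraries did not overlap for Pla2g2d, Ptgfr and Cyp2c44, which are named here after their values were seen. That is 10.3% of the 29, where 4.73% of all genes under the filter and 27.4% of tested genes had groups that did not overlap in either direction. Pla2g2d, a secreted phospholipase, was at 0.296 ± 0.125 FPKM in CTR and 1.41 ± 0.633 in dKO. Ptgfr, the prostaglandin F receptor, was at 0.931 ± 0.158 and 0.278 ± 0.0938, and the epoxygenase Cyp2c44 at 0.632 ± 0.273 and 0.120 ± 0.0783.

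For each of the 10 genes, the tested genes most like it were sought by Pearson correlation of log2(FPKM + 1) over the 12 libraries, after the mean of each group had been taken off. The libraries share their preparation and depth, and the values describe these libraries without a test. Because the best of many tested genes was taken each time, a high r comes in part from the search itself. The closest were Hpse for Hpgds (r = 0.97), Tbc1d2 for Tbxas1 (r = 0.95), Slpi for Ptges (r = 0.93) and BC021767 for Alox5ap (r = 0.96), the last followed by Enpp1 and the macrophage gene Trem2. Enpp1 was among the closest 3 of Hpgds as well, with r = 0.61 within CTR and 0.98 within dKO. For the genes that were not called they were Drg1 for Ptgs1 (r = 0.93), Cldn12 for Ptgs2 (r = 0.96), Mapk8ip1 for Ptgis (r = 0.96), Mtmr4 for Alox5 (r = 0.91), Rin1 for Pla2g4a (r = 0.96) and Mill2 for Ptger4 (r = 0.95).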

How the data were processed

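The authors mapped trimmed reads to mm39 with STAR and deposited FPKM values, not counts, for 28689 genes in 12 libraries. The labels instead name HISAT2 2.1.0, Bowtie2 2.2.3 and TopHat2 and a retinal protocol, and all 5 retina markers were under 1 FPKM. The counting program, annotation and strand setting are not given in the sources used here. Columns of the knockout group, named after tamoxifen, were matched to it because the other columns match the controls. The FPKM were tested as log2(FPKM + 1) by limma 3.58.1 (lmFit, eBayes with trend) in R 4.3.3, two-sided, with Benjamini-Hochberg adjustment over 12467 genes, those reaching 1 FPKM in 6 or more of the 12 libraries. No block or covariate entered the fit. Exact permutation tests used all 924 splits, so the smallest p is 0.00216. Whole fragments were recovered from the FPKM of 100% of genes (lengths of 20 to 150000 bases, tolerance 0.01 fragments) and served for depth and the voom alternatives. Recovered gene lengths equal the exon length of GENCODE M39 for 2738 genes, so fragments are less certain than FPKM.

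The script was tested on simulated data. Near-identical copies were sought with BLAST 2.17.0 (95% identity over at least 150 bases), and only genes overlapping on the opposite strand matched. Of the pathway list, Alox12b is not analysed here. Members, pathway and marker lists were chosen with earlier results of these data known. Genes named are the 10 members, Sp1 and Sp3, and pathway genes that were called, changed over 1.5-fold and did not overlap between groups. The 3 most correlated genes per member were also taken. Other names were chosen after their values were seen or belong to a list. Python 3.11.15 served for the remaining steps, with SciPy 1.17.1, Matplotlib 3.10.9, pandas 2.3.3 and NumPy 2.4.6. Alternatives were pseudocounts of 0.1 and 0.01, no filter, a filter of 5 FPKM, TPM, median-of-ratios scaling, a replicate block, leaving out each library, the permutation test and limma-voom on recovered fragments. Limma-voom on all genes was added after seeing the data.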

Additional observations from a re-analysis of the deposited data

Results flagged for a closer look

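A single library stood apart in its group for 3 of 28 gene and group pairs examined (the 10 genes of the main list, Ephx1, Ggt1, Sp1 and Sp3, in each group), where chance gives about 1 in 20, or 1.4. Ptgs2 was at 11.4 FPKM in dKO replicate 1, against 1.02 to 4.20 in the other dKO libraries. Hpgds was at 7.80 FPKM in dKO replicate 3, against 2.35 to 4.30, in the library with the highest macrophage marker sum, 5285 FPKM. Ggt1 was at 3.34 FPKM in dKO replicate 1, against 1.47 to 2.05. None of these libraries was left out of the values given above.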

How the results depend on the processing

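The calls of Hpgds, Tbxas1 and Alox5ap held in each of the 21 alternatives in which they were tested, and that of Ptges in 22. These include the permutation test, judged at an unadjusted p under 0.05. For groups that do not overlap its p is always the smallest possible, 0.00216, so it could not fail for these genes. Log2 fold changes were 1.29 to 2.32 for Hpgds, 0.94 to 1.54 for Tbxas1, 0.71 to 1.17 for Alox5ap and 0.86 to 1.18 for Ptges, the higher values of the first 3 coming with small pseudocounts or limma-voom. A filter of at least 5 FPKM left 4 of the 10 genes, of which 1 was called, with more than 1.5-fold change. It left 10 called genes of the wider pathway list (5 higher and 5 lower of 22 tested) and 4222 of 7891 genes in all. Leaving out 1 library at a time gave 4 to 5 called members, 4 with more than 1.5-fold change each time, 12 to 17 genes of the wider list and 5772 to 6736 genes in all. The sign of the Ptgs2 difference turned without CTR replicate 2 (−0.02), CTR replicate 4 (−0.04) or dKO replicate 1 (−0.18), never with a call, over a range of −0.18 to 0.34 when libraries were left out, and its cause was not tested. Median-of-ratios scaling changed the balance of all calls, to 3223 higher and 3011 lower, so the share of higher calls went from 38.5% to 51.7%, and the median of all genes from −0.10 to −0.02.

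With the replicate number as a block, 5 members were called, Pla2g4a being the addition (adjusted p = 0.0181, limma), with 20 genes of the wider list and 6955 in all. Deviations of same-numbered libraries correlated between −0.11 and 0.57, above 0.1 in 3 of 6 pairs, and 2 of 6 CTR libraries correlated best with their own number, so the libraries may share a number only.

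Low fragment numbers limit Alox5ap, Alox5, Hpgds and Ptger4, each with 80 fragments or fewer in its lowest library, and counting error is only part of the spread between libraries.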
